A study of Mus musculus with 24 samples.

Results

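The genes described here encode the matrix metalloproteinases (MMPs), the ADAMTS proteases and the tissue inhibitors of metalloproteinases (TIMPs) of the mouse. They were chosen by symbol alone, as every row of the count table whose Entrez identifier mapped to an Mmp, Adamts or Timp symbol followed by a number. That rule gave 46 of 24454 genes, namely 23 MMP, 19 ADAMTS and 4 TIMP genes. RNA was sequenced from organ of Corti (OC) explants of C57BL/6N mice of both sexes at postnatal day 5, which all groups shared together with 24 h of culture before treatment. Explants were then kept for 6 or 24 h without drug (CTRL), with 50 µM gentamicin (GM), with 10 µM pioglitazone (PIO) or with both (PIO+GM). Gentamicin is an aminoglycoside antibiotic that is toxic to hair cells, and pioglitazone activates the nuclear receptor PPAR-γ. Each of the 8 groups had 3 libraries, 24 in all, and the explants of a library were pooled, 6 at a time.

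MMPs and ADAMTS proteases are zinc-dependent enzymes that cut components of the extracellular matrix. Most are made as inactive precursors, and several MMPs stay on the cell surface as membrane-type enzymes. TIMPs bind the active site and block the protease, with TIMP3, which is held in the matrix, also blocking several ADAMTS proteases. In the cochlea these enzymes act on the collagens and proteoglycans of the basilar membrane, the spiral limbus and the surrounding connective tissue and bone.

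Promoter sequences are shown for 5 genes on which the results below turn, namely Mmp3 and Mmp13, which surged in single libraries, Timp1 and Timp3, which fell with culture time, and Mmp24, which was lower with gentamicin. They are the 250 bases before the gene start on the + strand, from RefSeq on GRCm38.p6, and 32 of the 46 genes had such an entry. Capitals mark the motifs TGANTCA (bound by AP-1, the Fos and Jun family of transcription factors), TATAAA (the TATA box) and GGGCGG (the GC box, bound by Sp1), searched on both strands.
Mmp3, chr9:7445572-7445821: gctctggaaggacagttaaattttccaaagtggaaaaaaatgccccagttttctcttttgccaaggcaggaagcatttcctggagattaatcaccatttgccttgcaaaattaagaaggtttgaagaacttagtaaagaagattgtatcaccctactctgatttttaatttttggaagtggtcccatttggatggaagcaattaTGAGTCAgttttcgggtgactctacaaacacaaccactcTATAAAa
Mmp13, chr9:7272264-7272513: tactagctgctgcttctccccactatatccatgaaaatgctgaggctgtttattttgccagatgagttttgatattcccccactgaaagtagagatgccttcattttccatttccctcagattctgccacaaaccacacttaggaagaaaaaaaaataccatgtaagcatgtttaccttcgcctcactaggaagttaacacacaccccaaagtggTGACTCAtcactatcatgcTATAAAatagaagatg
Timp1, chrX:20869916-20870165: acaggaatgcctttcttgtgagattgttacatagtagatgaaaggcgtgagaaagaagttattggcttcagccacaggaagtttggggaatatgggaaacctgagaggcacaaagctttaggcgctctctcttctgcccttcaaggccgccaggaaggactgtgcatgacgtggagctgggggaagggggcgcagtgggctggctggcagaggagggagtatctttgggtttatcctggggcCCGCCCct
Timp3, chr10:86300162-86300411: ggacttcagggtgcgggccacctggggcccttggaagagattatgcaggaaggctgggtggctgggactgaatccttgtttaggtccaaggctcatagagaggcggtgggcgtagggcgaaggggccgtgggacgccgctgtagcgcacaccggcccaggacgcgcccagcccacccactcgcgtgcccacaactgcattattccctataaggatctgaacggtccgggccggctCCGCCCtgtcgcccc
Mmp24, chr2:155775092-155775341: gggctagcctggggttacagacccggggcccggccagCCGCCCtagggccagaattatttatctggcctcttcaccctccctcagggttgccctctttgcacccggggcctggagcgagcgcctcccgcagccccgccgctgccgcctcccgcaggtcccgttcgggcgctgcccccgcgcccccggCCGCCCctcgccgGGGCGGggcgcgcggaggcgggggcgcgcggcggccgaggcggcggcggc

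TGANTCA was present in 6.75% of 32851 RefSeq promoter windows of the same length, and in those of 8 of the 32 genes: Mmp1a, Mmp1b, Mmp3, Mmp7, Mmp10, Mmp12, Mmp13 and Mmp20. All 8 lie in a run of 10 MMP genes on chromosome 9 (GRCm38.p6, 7272514 to 7699585). TATAAA was present in 12.4% of all windows and in 9 of the 32 genes, and GGGCGG in 32.7% and in 16, including Timp1, Timp2, Timp3, Mmp14 and Mmp24. The exact letters of the direct repeat DR1, to which PPAR-γ binds with its partner RXR, were present in 0.0335% of all windows and in none of the 32 genes. At a share that low, 32 genes are too few for their absence to be read, so no conclusion is drawn from it. Matches describe the letters of these windows and not binding.

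Library totals ranged from 7211357 to 15548856 counts, so that 3 counts corresponded to between 0.193 and 0.416 CPM (counts scaled to the library total). The filter on low counts kept 16317 genes, 38 of the 46 among them. Markers of the labelled tissue were present in every library: the summed CPM of 10 hair cell genes ranged from 456.61 to 1014.79 and that of 10 supporting cell genes from 3984.64 to 10796.53. Marker sums of chondrocytes and osteoblasts (3443.71 to 11723.71 CPM) and of fibroblasts and mesenchyme (2947.3 to 7190.69 CPM) were of similar size, whereas the neutrophil sum reached at most 5.24 CPM. Most of the chondrocyte and osteoblast sum came from the collagen genes Col2a1 and Col9a1 (medians of 5540 and 1719 CPM). The medians of Matn1, Sp7, Bglap, Ibsp and Dmp1 were 11.3, 3.94, 0.461, 38.5 and 50.4 CPM. In bulk RNA of this kind, fewer cells of a type and less RNA per cell cannot be told apart. In each group 1 library was lowest in supporting cell markers, and main counts of called genes are also given without these 8 libraries. Replicate libraries differed well beyond counting noise, and p-values measure only the spread between these libraries.

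The 8 genes below the filter were all MMPs, namely Mmp1a, Mmp1b, Mmp7, Mmp8, Mmp10, Mmp20, Mmp21 and Mmp27, with 0 to 8 counts in any library. These include the collagenases other than Mmp13, the matrilysin Mmp7 and the tooth enamel protease Mmp20, and 7 of them belong to the run on chromosome 9. Of the 10 genes in that run, Mmp3, Mmp12 and Mmp13 passed the filter. Expression of these 8 was not detectable, or barely so, at this depth.

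Levels between genes were compared as CPM per kilobase of gene length (RPKM), over all 24 libraries. The gelatinase Mmp2 (median 149 RPKM), the membrane-type Mmp14, which activates pro-MMP2 (138 RPKM), and the inhibitors Timp3 (110 RPKM) and Timp2 (72.3 RPKM) stood highest. Timp1 (28.8 RPKM) came next over both times together, ahead of the proteoglycan-cleaving Adamts9 (26.6 RPKM) and Adamts1 (25.1 RPKM). Adamts12, a protease of cartilage oligomeric matrix protein, Adamts2, which trims the N-propeptide of fibrillar procollagens, and the stromelysin-like Mmp11 followed at 21.7, 21.5 and 19.4 RPKM. In CTRL at 6 h, Timp3 was at 231 ± 53.4 RPKM (SD, n = 3), Mmp2 at 141 ± 28.9 and Mmp14 at 105 ± 19.9. In CTRL at 24 h, Mmp2 was at 196 ± 35.4 RPKM, Mmp14 at 195 ± 18.5 and Timp3 at 105 ± 4.67, so that Timp3 stood above both proteases at 6 h and below both at 24 h, while Mmp2 and Mmp14 themselves did not differ beyond their spread at 24 h. The rank of Timp1 also mixed the times, as it was at 79.5 RPKM in CTRL at 6 h and 12.3 at 24 h. At 24 h Adamts9 (34.2 RPKM) and Adamts1 (26.4 RPKM) stood above it in CTRL. In all, 14 genes had a median of at least 10 RPKM, 15 lay between 1 and 10 RPKM, and 9 that passed the filter were below 1 RPKM. The median over the 38 genes was 4.26 RPKM, against 8.53 RPKM over all genes tested.

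**Figure D1:**
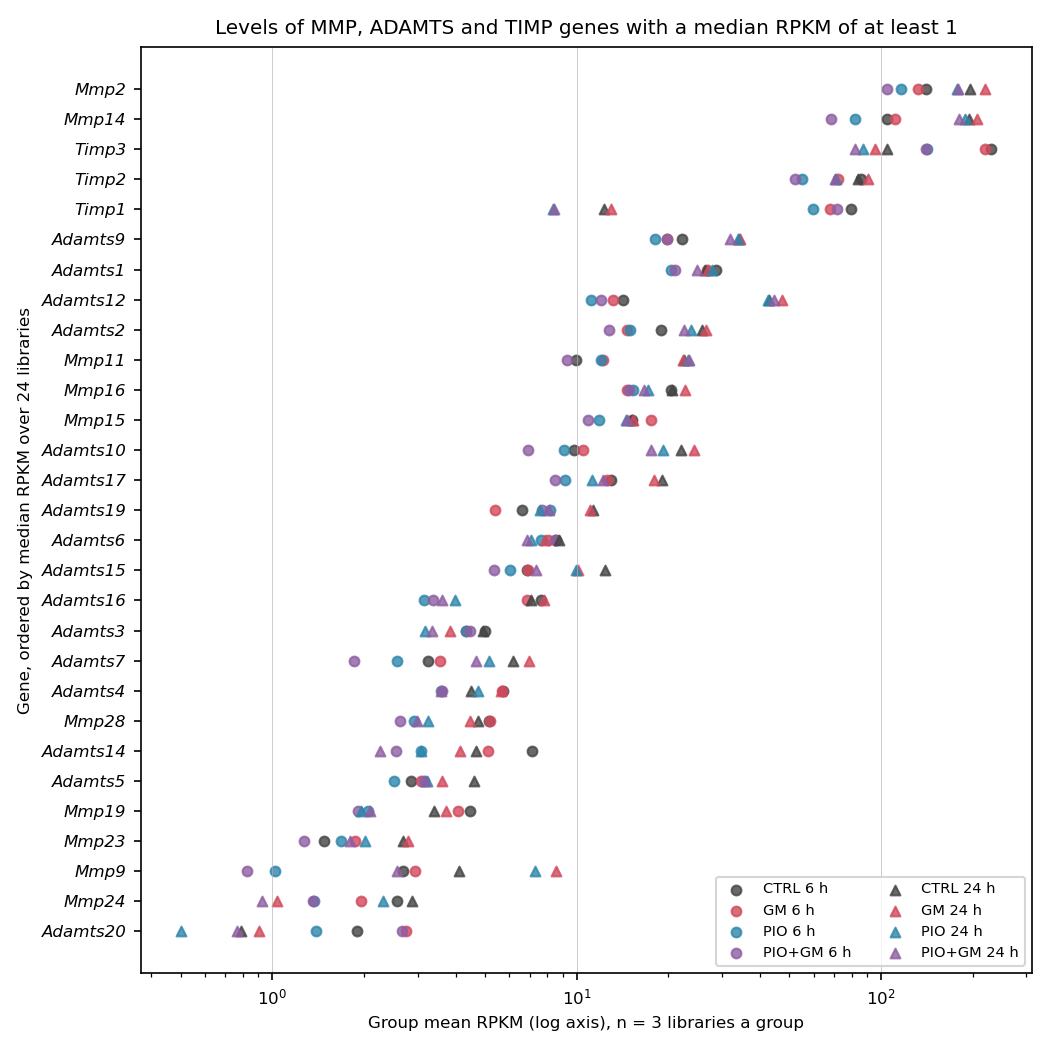
Group mean level in RPKM (log axis) of the 29 genes with a median of at least 1 RPKM, ordered by that median. Circles are 6 h and triangles 24 h, and colours give the treatment. The triangles of Timp1 and Timp3 lie left of their circles, and those of Adamts12, Adamts9 and Mmp14 lie right of theirs.

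Culture time was the comparison in which these genes changed most. Between 6 and 24 h the inhibitors Timp1 and Timp3 fell in all 4 treatments, while the proteases Adamts2, Adamts7, Adamts9, Adamts10, Adamts12 and Mmp14 rose in all 4. Of the 38 genes, 14 changed in CTRL (12 rose, 2 fell), 12 in GM (9 rose, 3 fell), 10 in PIO (6 rose, 4 fell) and 10 in PIO+GM (7 rose, 3 fell), by edgeR's quasi-likelihood test with Benjamini-Hochberg adjustment over all 16317 genes at 0.05. Changes were common among all genes too, at 28.0%, 24.2%, 29.0% and 34.6% of genes called in the same order, against 36.8%, 31.6%, 26.3% and 26.3% of these. By direction, 14.8% of all genes rose and 13.2% fell in CTRL, 12.5% and 11.7% in GM, 13.2% and 15.8% in PIO, and 17.6% and 17.0% in PIO+GM. All 3 libraries at 24 h lay above all 3 at 6 h for 13 genes in CTRL, 13 in GM, 7 in PIO and 8 in PIO+GM (24.1%, 22.7%, 20.5% and 22.4% of all genes), and below for 3, 5, 7 and 5 (22.3%, 22.2%, 20.7% and 20.7%). Whether the GM or the PIO effect differed between 24 and 6 h was tested as an interaction, and edgeR and DESeq2 each called 0 of the 38 genes for either. Of all genes edgeR called 0 for both, and DESeq2 called 0.00613% for PIO. The unadjusted p was under 0.05 for 2 and 6 of the 38 genes, with backgrounds of 0.766% and 4.38%. Without the 8 libraries lowest in supporting cell markers, 13, 17, 14 and 15 of the 38 genes were called between 24 and 6 h in CTRL, GM, PIO and PIO+GM, where 19.4%, 25.8%, 34.2% and 36.8% of all genes were.

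Markers of other cells moved with time as well. The summed CPM of 5 erythroid genes ran from 264.44 to 654.04 at 6 h and from 77.52 to 137.42 at 24 h in CTRL, and the groups did not overlap in the other treatments either. That of 5 Schwann cell genes ran from 635.71 to 1528.26 at 6 h and from 273.49 to 511.56 at 24 h in CTRL, without overlap in CTRL and GM and with overlap in PIO and PIO+GM. The part of these cells in the results over time was not tested.

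Timp1, which inhibits most soluble MMPs, had 63.0, 111 and 38.5 CPM in the 3 CTRL libraries at 6 h and 10.4, 9.05 and 13.4 CPM at 24 h. Every library at 24 h lay below every library at 6 h, in CTRL as in the other treatments, where values at 6 h reached 103 CPM and those at 24 h ran from 5.65 to 12.6 CPM. The log2 fold change was -2.70 (SE 0.37, adjusted p = 4.53e-05) in CTRL, -2.39 (SE 0.37, adjusted p = 0.000147) in GM, -2.83 (SE 0.37, adjusted p = 5.32e-05) in PIO and -3.09 (SE 0.38, adjusted p = 1.63e-05) in PIO+GM, by edgeR. Timp3 had 1237, 1211 and 791 CPM in CTRL at 6 h and 511, 467 and 492 CPM at 24 h, again without overlap. It fell by 1.14 on the log2 scale in CTRL (SE 0.18, edgeR adjusted p = 0.000139), by 1.21 in GM, by 0.70 in PIO and by 0.78 in PIO+GM. Both genes kept these calls under every alternative tried. Timp2, the TIMP that with Mmp14 helps to activate pro-MMP2, did not pass the test, with 326, 363 and 244 CPM at 6 h and 319, 318 and 276 CPM at 24 h in CTRL. Timp4 was scarce but rose, from 0.402, 0.441 and 0.240 CPM to 2.46, 1.19 and 3.75 CPM in CTRL (log2 2.73, SE 0.64, edgeR adjusted p = 0.00383) and by a log2 of 2.69 in GM (adjusted p = 0.00413), whereas its values in PIO at 24 h were 0.964, 0.390 and 1.07 CPM. Timp1, Timp3 and Timp4 each lie within an intron of a synapsin gene, and whether the authors' counting used the strand is not stated.

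**Figure D2:**
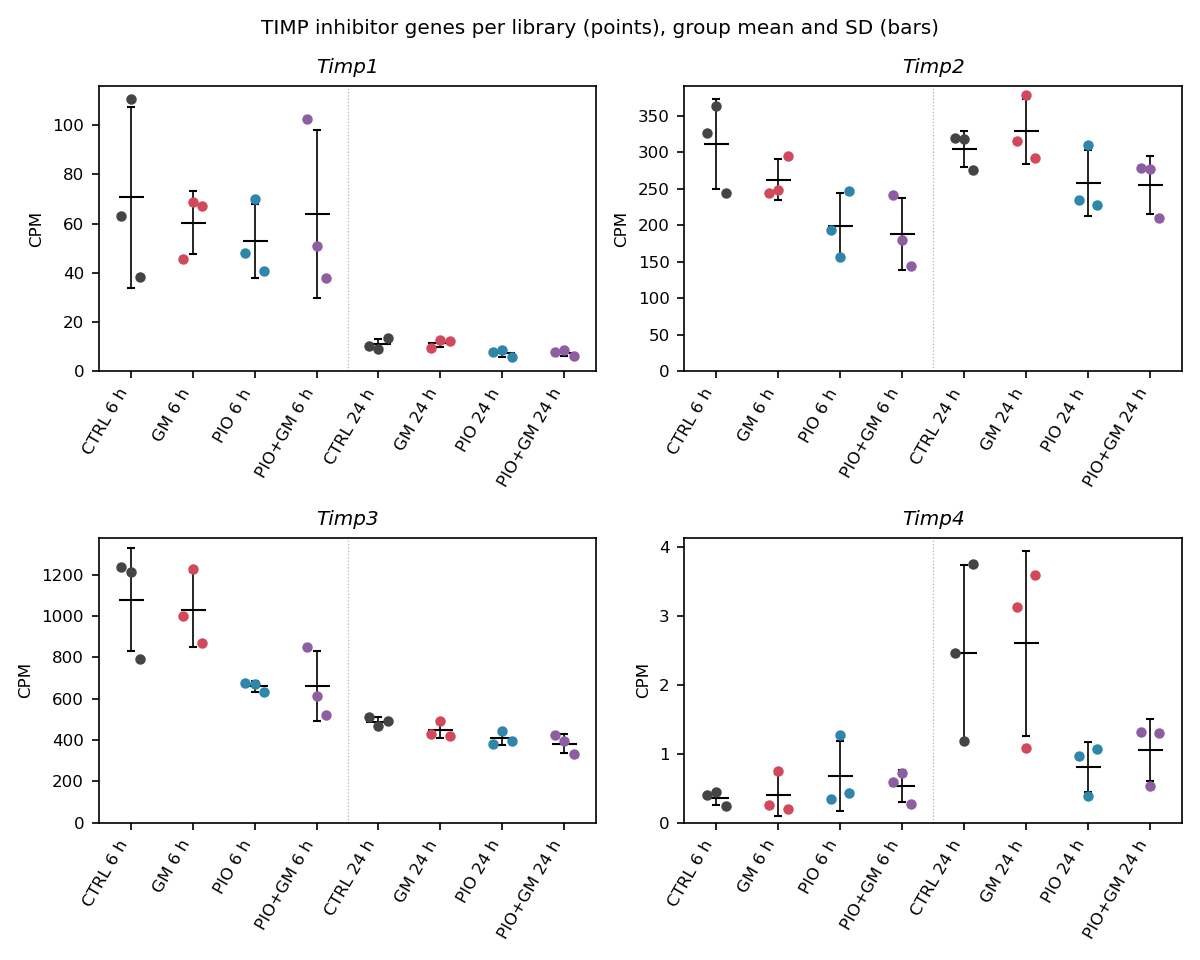
CPM of the 4 TIMP genes in each library (points), with the group mean and SD (bars, n = 3). Timp1 and Timp3 fall between 6 and 24 h in every treatment without overlap, Timp2 does not separate by time, and the mean of Timp4 is highest in CTRL and GM at 24 h.

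Among the proteases, Adamts12 changed by the most of those that rose in all 4 treatments, from 64.3, 114 and 86.7 CPM in CTRL at 6 h to 230, 401 and 168 CPM at 24 h. Its log2 fold change was 1.59 (SE 0.39, edgeR adjusted p = 0.00525) in CTRL, 1.84 in GM, 1.94 in PIO and 1.88 in PIO+GM, and library 2 was the highest of the 3 in every group at 24 h. Adamts9 rose with little spread, from 124, 148 and 129 CPM to 221, 202 and 195 CPM in CTRL (log2 0.63, SE 0.13, edgeR adjusted p = 0.00187), and by 0.79, 0.90 and 0.69 in GM, PIO and PIO+GM. Mmp14 went from 331, 253 and 233 CPM to 551, 509 and 456 CPM in CTRL (log2 0.89, SE 0.26, edgeR adjusted p = 0.0153). Leaving out CTRL 6 h replicate 2, CTRL 6 h replicate 3 or CTRL 24 h replicate 1 ended the call of Mmp14 in CTRL, with an edgeR adjusted p of up to 0.0663, and leaving out GM 6 h replicate 1 or 2 or GM 24 h replicate 1 or 2 did so in GM, up to 0.0777. In PIO and PIO+GM, where it rose by 1.20 and 1.40, Mmp14 kept its call throughout.

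Adamts2 rose by a log2 of 0.44 in CTRL, 0.86 in GM, 0.66 in PIO and 0.82 in PIO+GM. Adamts7, which like Adamts12 cuts cartilage oligomeric matrix protein, rose by 0.93, 0.97, 0.99 and 1.32 in the same order, and Adamts10 by 1.07 in PIO to 1.34 in PIO+GM. In CTRL some calls were lost under the alternatives: Adamts7 stayed at 0.63 to 1.06 and Adamts2 at 0.37 to 0.54, while the call was lost in 7 and 6 of the 14 (edgeR adjusted p up to 0.186 and 0.137). Adamts2 in GM, PIO and PIO+GM and Adamts7 in PIO+GM kept their calls under all 14 alternatives, whereas Adamts10 lost its call under 2 to 5 of the 14 in each treatment. Mmp11 rose in CTRL (1.18) and PIO+GM (1.33), Adamts19 in CTRL (0.77) and GM (1.04), Mmp16, a membrane-type MMP, in GM (0.64), and Adamts5, an aggrecanase, and Mmp23 in CTRL (0.69 and 0.86). Mmp16 lost its call under 8 of 14 alternatives, and Adamts5 and Mmp23 under 7 each (edgeR adjusted p up to 0.131, 0.19 and 0.137). Mmp11 lost its call under 4 of the 14 in CTRL and 1 in PIO+GM, and Adamts19 under 2 in CTRL. Adamts7 lost its call under 4 of the 14 in GM and 3 in PIO. Adamts8 fell in GM (-1.24) and PIO (-1.88), Adamts20 in PIO+GM (-1.80) and the macrophage elastase Mmp12 in PIO (-2.90), the last from 0.526, 1.17 and 1.01 CPM to 0, 0.130 and 0.215 CPM. Mmp12 lost its call under 9 of 13 alternatives and Adamts8 in GM under 5 of 13 (edgeR adjusted p up to 0.149 and 0.142). Adamts20 had 43.5 CPM in PIO+GM 6 h replicate 1, without which its fold was -0.98 (edgeR adjusted p = 0.213). The call of Mmp3 in CTRL rested on 1 library: its log2 fold change was 3.63 (edgeR adjusted p = 0.0308), and -2.14 (adjusted p = 0.0866) without CTRL 24 h replicate 3. Of the 46 calls over the 4 treatments, 26 held under every alternative tried.

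**Figure D3:**
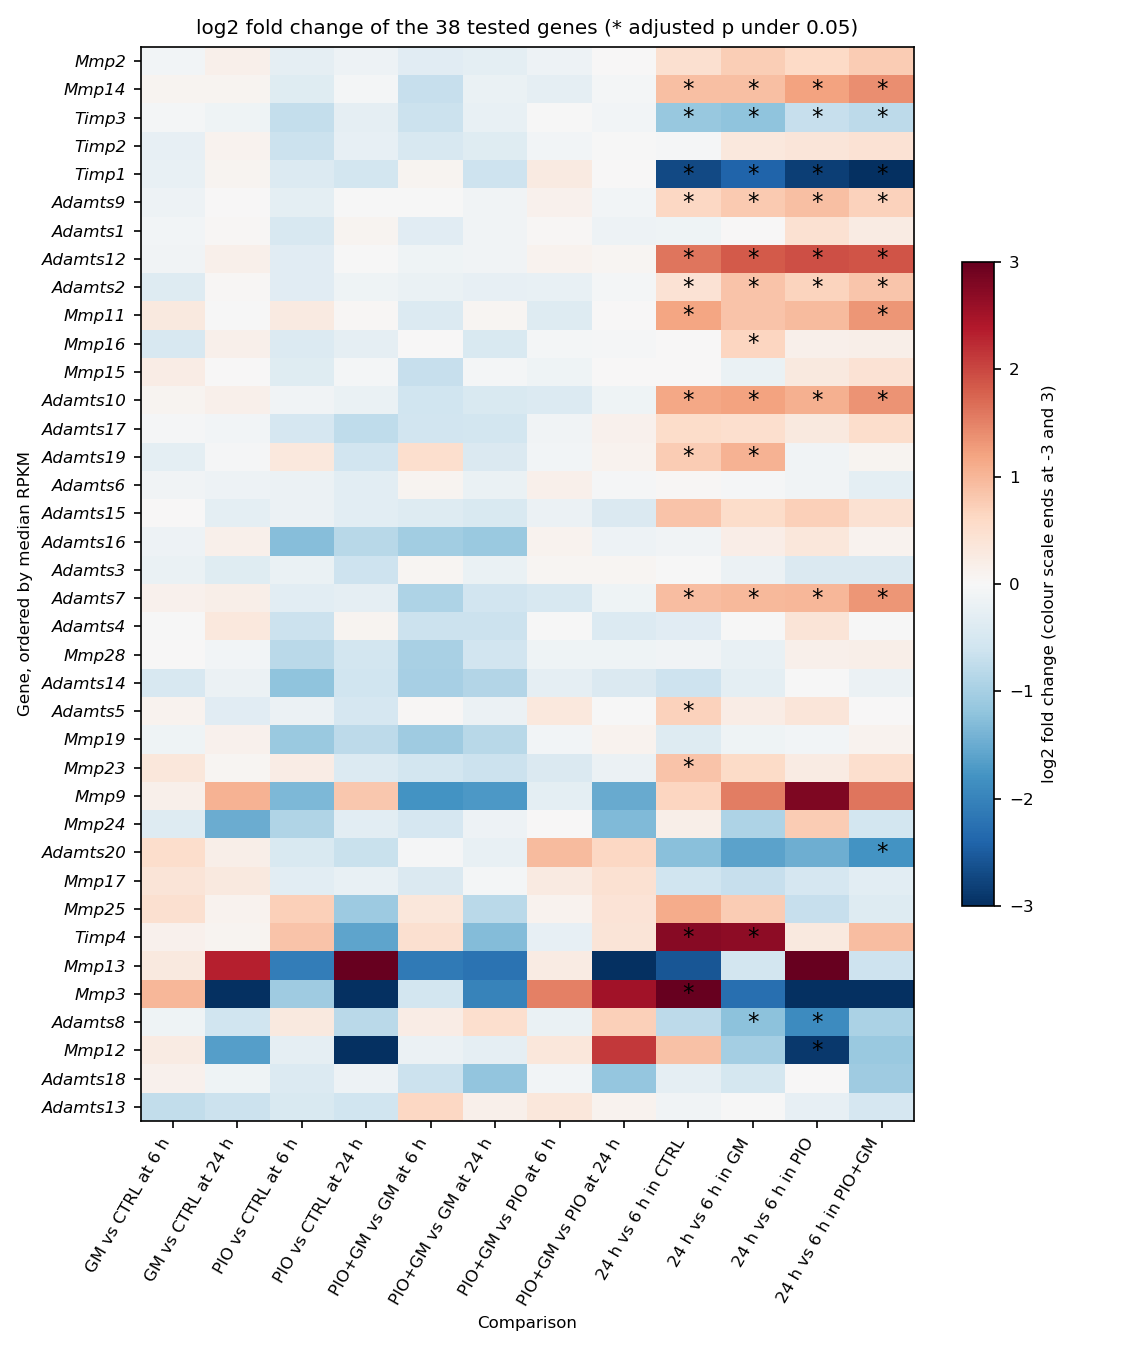
log2 fold change of the 38 tested genes (rows, by median RPKM) in the 12 comparisons (columns), with colour from blue (lower) to red (higher) ending at -3 and 3, and an asterisk where the edgeR adjusted p was under 0.05. Asterisks stand in the 4 columns of 24 h against 6 h and in none of the 8 drug columns.

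Other genes of the pathway also moved with time. Of 12 tested regulators and activators of MMPs, 4 rose and 4 fell in CTRL, where 14.8% of all genes rose and 13.2% fell. The membrane-anchored MMP inhibitor Reck rose (log2 0.60, edgeR adjusted p = 0.0016), as did the broad protease inhibitor A2m (1.57), Serpine2 (0.75) and Bsg (0.89), which is known to induce MMPs. Plaur, the receptor of the plasminogen activator urokinase, fell (-3.21, edgeR adjusted p = 8.09e-05), as did Cd44 (-1.23) and Plat (-1.15). Of the 7 AP-1 subunits, 3 fell in CTRL and 0 rose, beside the same shares of all genes, with Fosl1 going from 17.4, 35.6 and 12.4 CPM at 6 h to 0.703, 0.330 and 0.611 CPM at 24 h (log2 -5.32, edgeR adjusted p = 4.99e-05). The 12 matrix substrates had a median log2 fold change of 0.38 in CTRL against 0.03 over all genes, and none of them passed the test in CTRL or PIO+GM. Elastin (Eln, 0.80) and fibrillin-1 (Fbn1, 0.66) rose in GM and Fbn1 (0.63) in PIO, 2 and 1 of the 12, where 12.5% and 13.2% of all genes rose.

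With pioglitazone, most of these genes were lower, but none passed the test without a replicate block in any of the 4 planned comparisons. Against CTRL at 6 h, 32 of the 38 genes were lower, with a median log2 fold change of -0.36 where that of all genes was 0.00, and 0 were called where 0.337% of all genes were. At 24 h, 33 of 38 were lower (median -0.31, all genes -0.01), with 0 called and a background of 0.153%. In PIO+GM against GM, 28 of 38 were lower at 6 h (median -0.42, all genes -0.02) and 35 of 38 at 24 h (median -0.40, all genes 0.00), again with 0 called and backgrounds of 1.32% and 0.110%. The unadjusted p was under 0.05 for 11, 9, 11 and 7 of the 38 genes in the same order, where the backgrounds were 15.2%, 9.93%, 25.0% and 7.47%. DESeq2 called 2, 1, 3 and 0 of the 38 genes, and 2.35%, 0.993%, 8.15% and 0.686% of all genes. With the replicate number as a block, edgeR called 3, 3, 7 and 1 of the 38 genes. The shares of all genes were then 2.27%, 1.48%, 12.2% and 0.601%. All 3 libraries lay below all 3 controls for 4 genes in PIO against CTRL at 6 h, 13 at 24 h, 10 in PIO+GM against GM at 6 h and 10 at 24 h, with backgrounds of 6.73%, 10.6%, 11.4% and 8.57%. They lay above for 1, 0, 0 and 0 genes, with backgrounds of 8.68%, 11.7%, 11.6% and 9.84%. These 4 comparisons share no library, and 22 of the 38 genes were lower in all 4 and 0 were higher in all 4, against 3550 (21.8%) and 3169 of the 16317 genes.

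In PIO against CTRL at 6 h the lowest p was that of Adamts14, a procollagen N-propeptidase like Adamts2. At 6 h it had 33.5, 21.6 and 55.7 CPM in CTRL and 27.2, 27.0 and 25.0 in GM, against 18.0, 9.64 and 20.3 in PIO and 16.4, 12.4 and 10.9 in PIO+GM. Each library with pioglitazone lay below each library without it, at 24 h as well, where it had 20.9, 27.4 and 24.1 CPM in CTRL and 14.6, 16.0 and 17.3 in PIO. The log2 fold change of PIO against CTRL was -1.20 at 6 h (SE 0.27, edgeR adjusted p = 0.0542, 0.0228 without the 8 libraries, and 0.00243 to 0.429 over all alternatives, with folds of -1.68 to -0.78, the latter without CTRL 6 h replicate 3), and -0.60 at 24 h (SE 0.27, adjusted p = 0.453). Mmp28, an MMP also known as epilysin, was also lower without overlap, with 15.0, 10.4 and 10.4 CPM in CTRL and 8.25, 4.55 and 7.38 in PIO at 6 h. In PIO+GM against GM at 6 h its log2 fold change was -0.97 (SE 0.26, edgeR adjusted p = 0.0631), and -1.36 to -0.49 over the alternatives. Timp3 at 6 h had 677, 673 and 631 CPM in PIO and 848, 611 and 521 in PIO+GM, so that PIO lay below the CTRL values given above and PIO+GM below GM, at 999, 1226 and 867 (log2 -0.71 and -0.64, edgeR adjusted p = 0.0768 and 0.064).

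To use both arms, the mean of PIO and PIO+GM was also set against that of CTRL and GM, 6 against 6 libraries, a contrast chosen with the values in view. At 6 h, 7 genes were called lower by edgeR, where 6.83% of all genes were called lower and 9.25% higher. They were Adamts14 (-1.10, adjusted p = 0.00224), Timp3 (-0.68, adjusted p = 0.00277), Mmp28 (-0.89, adjusted p = 0.00518), Timp2 (-0.56, adjusted p = 0.014), Adamts16 (2.23-fold lower, adjusted p = 0.0201), Mmp19 (-1.09, adjusted p = 0.0228) and Adamts17 (-0.53, adjusted p = 0.0337), of which Adamts16, Adamts17 and Mmp19 were named only after their values were seen. Inhibitors and proteases were thus both among those lower. A fit to the 12 libraries of 6 h alone called 0 of them and 0.907% of all genes. Leaving out PIO 6 h replicate 3 or PIO+GM 6 h replicate 1 raised the count to 14 and 12, and the share of all genes from 16.1% to 25.5% and 30.6%. At 24 h, Mmp3 (-5.70, adjusted p = 0.0279), Adamts17 (-0.66, adjusted p = 0.0323) and Adamts14 (-0.73, adjusted p = 0.0411) were called lower against a background of 2.00%, and leaving out PIO 24 h replicate 2, PIO+GM 24 h replicate 2 or any replicate 3 left 0, as did GM 24 h replicate 1, while CTRL 24 h replicate 1, PIO 24 h replicate 1 or PIO+GM 24 h replicate 1 left 1. Over the alternatives the log2 fold change of Mmp3 at 24 h ran from -6.80 to -2.82, and its call was lost in 11 of 19. Adamts17 and Adamts14 lost theirs at 24 h in 9 and 15 of 21.

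In PIO and CTRL at 24 h, deviations of libraries with the same number correlated at 0.107, 0.561 and 0.227, although replicates 1 and 3 correlated at 0.416 and 0.246 with another number. With the replicate number as a block 3 genes were called there by edgeR: Timp4 (-1.59, adjusted p = 0.0112), Adamts17 (-0.78, adjusted p = 0.0281) and Mmp3 (-8.44, adjusted p = 0.0313), where 1.48% of all genes were called. Mmp3 had 0, 0.0651 and 0 CPM in PIO at 24 h, a single count in all, against 0.615, 0.198 and 64.6 CPM in CTRL. The ratio of CTRL to PIO was 887 (exact 95% interval 159 to 35070, counting error only) and 16.9 (2.41 to 735) without CTRL 24 h replicate 3. In PIO+GM against GM at 6 h, the count of called genes rose from 0 to 9 without PIO+GM 6 h replicate 1 and to 11 without the 8 libraries lowest in supporting cell markers, while the share of all genes called rose from 1.32% to 24.4% and 18.9%.

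Values that moved with pioglitazone stand beside these results. The summed CPM of fibroblast and mesenchyme markers at 24 h was 3478.97 to 4294.54 in PIO and 3425.1 to 4061.31 in PIO+GM, against 5302.85 to 5929.27 in CTRL and 5078.5 to 7190.69 in GM, with no overlap, whereas the groups overlapped at 6 h. The osteoclast sum at 24 h was 24.45 to 29.85 in PIO+GM against 34.98 to 61.14 in GM, while PIO and CTRL overlapped. The scarce neutrophil sum at 24 h was 0.86 to 1.04 in PIO against 1.19 to 5.24 in CTRL, while PIO+GM and GM overlapped. The transcripts of Adamts14 and Mmp28 hold 59.9% and 60.2% G and C, and with the trend on G and C content removed the counts at 6 h and 24 h were 2 and 1 in PIO against CTRL, with 1.33% and 0.534% of all genes called. In PIO+GM against GM at 6 h, removing the trend lowered the share of all genes called from 1.32% to 0.625%, and with the replicate block it lowered the count from 7 to 1. The part of these values in the results was not tested. Of 7 tested known PPAR-γ targets, 1 rose in PIO against CTRL at 6 h and 3 at 24 h, and 2 rose in PIO+GM against GM at 6 h and 3 at 24 h, where 0.337%, 0.153%, 1.32% and 0.110% of all genes were called in either direction. Cpt1a rose in all 4 comparisons (log2 0.77 to 1.12) and Angptl4 at 24 h (3.35 against CTRL and 2.67 in PIO+GM against GM), whereas Plin4, a lipid droplet protein, fell in PIO+GM against GM at 6 h (-2.19, edgeR adjusted p = 0.0294). Plau, the urokinase that activates plasminogen and through it several pro-MMPs, fell at 6 h by 2.12 and 1.83 on the log2 scale (edgeR adjusted p = 0.00665 and 0.00977), from 19.3, 34.8 and 16.8 CPM in CTRL to 3.60, 6.35 and 6.29 in PIO.

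**Figure D4:**
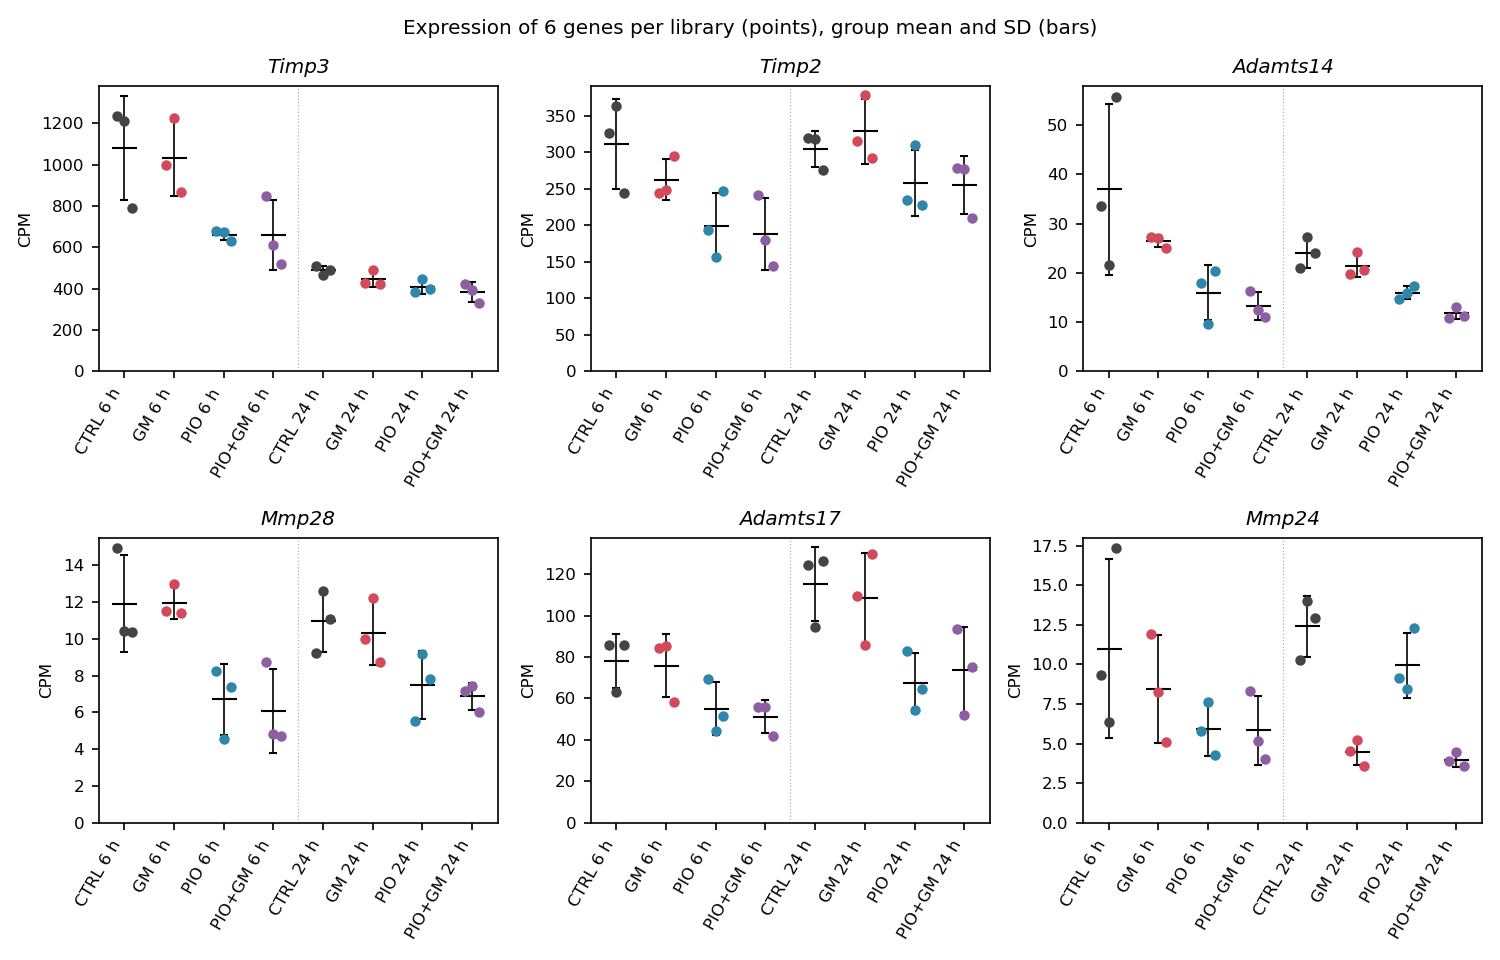
CPM of 6 genes in each library (points), with the group mean and SD (bars, n = 3). Adamts14 lies lower with PIO and PIO+GM at both times, Timp3 and Timp2 mainly at 6 h, Mmp28 at both times, Adamts17 is lower on average at both times, and Mmp24 lies lower in GM and PIO+GM at 24 h.

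With gentamicin, none of the 38 genes was called against CTRL or against PIO. At 6 h 0 of 16317 genes were called against CTRL and 0 in PIO+GM against PIO, and at 24 h 0.0123% and 0.0735%. The unadjusted p was under 0.05 for 2 of the 38 genes at 6 h and 2 at 24 h against CTRL, and for 0 and 3 in PIO+GM against PIO, with backgrounds of 1.49%, 1.67%, 3.06% and 2.59%. DESeq2 called 1 of them and 0.0919% of all genes in GM against CTRL at 24 h, and 0 of them in the other 3. The medians of the log2 fold changes lay between -0.06 and 0.04. Against CTRL, all 3 GM libraries lay lower for 1 gene at 6 h, Adamts2, and for 1 at 24 h, Mmp24, and higher for 0 at either time, with backgrounds of 2.09% and 3.06% lower and 3.14% and 2.60% higher. Adamts2 had 122, 136 and 155 CPM in CTRL and 114, 93.4 and 110 in GM at 6 h (log2 -0.38, SE 0.15, edgeR adjusted p = 1.00). In PIO+GM against PIO, 0 genes were without overlap at 6 h (backgrounds of 1.70% higher and 1.67% lower), and at 24 h 3 were higher and 3 lower (4.10% and 4.71%).

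Mmp24, the membrane-type MT5-MMP that is best known from neurons, had the lowest unadjusted p of the lower genes in both comparisons at 24 h. It had 10.3, 14.0 and 12.9 CPM in CTRL and 9.12, 8.46 and 12.3 in PIO, against 4.55, 5.20 and 3.60 in GM and 3.90, 4.47 and 3.60 in PIO+GM. Every library with gentamicin lay below every library without it. The log2 fold change was -1.48 (SE 0.35) for GM against CTRL and -1.32 (SE 0.35) for PIO+GM against PIO, with edgeR adjusted p of 0.325 and 0.333, and 0.0401 to 1.00 and 0.0406 to 1.00 over the alternatives. Over both arms, GM against no GM at 24 h, a contrast added after the data were seen, it was 2.63-fold lower (log2 -1.40, SE 0.25, edgeR adjusted p = 0.0102), where 0.313% of all genes were called, and it kept that call under all 21 alternatives run. At 6 h the groups overlapped, with 9.33, 6.35 and 17.3 CPM in CTRL and 11.9, 8.26 and 5.10 in GM, and the difference in the gentamicin effect between 24 and 6 h was not called.

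Hair cell genes stand beside this result. Slc26a5, which encodes the outer hair cell motor prestin, had 43.6, 5.62 and 60.4 CPM in CTRL and 46.7, 5.73 and 35.6 in PIO at 24 h, against 7.77, 0.676 and 17.2 in GM and 14.1, 1.59 and 13.4 in PIO+GM. It was lower with gentamicin in all 6 pairs of libraries of the same number. Its log2 fold change over both arms was -1.84 without the replicate block (edgeR adjusted p = 0.649) and -1.94 with it (SE 0.21, adjusted p = 0.000294), and with the block it was called in GM against CTRL (-2.21, adjusted p = 0.00967) and in PIO+GM against PIO (-1.68, adjusted p = 0.0371). Over both arms and without the block, 9 of the 10 hair cell markers were lower (median log2 -0.31) and 0 were called. Otof, which serves transmitter release in hair cells, had 171, 132 and 156 CPM in CTRL and 92.5, 74.5 and 98.5 in GM at 24 h, without overlap. In the other arm its values overlapped, with 136.5, 69.1 and 132.1 CPM in PIO and 95.4, 54.9 and 121.3 in PIO+GM. With the block Otof was not called in either arm (log2 -0.80 and -0.32). The summed CPM of the 10 markers was 759.51 to 1014.79 in CTRL and 570.17 to 893.81 in PIO, against 618.81 to 773.63 in GM and 572.38 to 779.87 in PIO+GM. The part of hair cell RNA in the Mmp24 values was not tested.

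Mmp3, Mmp13 and Mmp9 differed more between libraries of 1 group than between groups. Mmp13, a collagenase of cartilage and bone, reached 97.0 CPM in PIO 24 h replicate 2 where the other 2 libraries had 0.578 and 0.143, 26.9 in GM 6 h replicate 3 beside 0.757 and 1.26, and 16.9 in CTRL 6 h replicate 2 beside 1.29 and 5.67. Mmp9, a gelatinase abundant in osteoclasts and leukocytes that was named only after its values were seen, reached 63.8 CPM in PIO 24 h replicate 2, 58.0 in GM 24 h replicate 2 and 22.4 in GM 6 h replicate 3. The stromelysin Mmp3 surged elsewhere, in CTRL 24 h replicate 3 (64.6 CPM), while its value in the other 23 libraries was at most 4.74 CPM. None of the 8 comparisons of a drug with its control called these genes, although Mmp3 was called lower with pioglitazone at 24 h with the block and over both arms, as given above, and the sign of Mmp13 in PIO against CTRL at 24 h turned from 4.62 to -1.82 on the log2 scale without PIO 24 h replicate 2.

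Acp5, the osteoclast acid phosphatase, was highest in the same libraries as Mmp13 in several groups, at 12.9 CPM in PIO 24 h replicate 2, 8.12 in CTRL 6 h replicate 2, 8.04 in GM 24 h replicate 2 and 7.96 in GM 6 h replicate 3, with a median of 1.81 over all libraries. Of the 7 osteoclast markers Acp5, Ctsk, Oscar and Atp6v0d2 passed the filter, Calcr, Dcstamp and Ocstamp reached 0 counts in some library, and the sum ran from 24.45 to 61.14 CPM. These 4 libraries were also the highest of their groups in the summed CPM of macrophage markers (172.68, 99.86, 177.35 and 109.33 in the same order) and of endothelial markers (212.96, 310.79, 303.15 and 300.02), and they are among the 8 lowest in supporting cell markers. CTRL 24 h replicate 2 is also among those 8 and was highest of its group in both sums (120.37 and 230.11) and in Acp5 (2.58 CPM). Its Mmp13 value, 0.330 CPM, was the lowest of its group. The neutrophil genes S100a8 and S100a9 reached at most 8 and 7 counts. The part of osteoclasts and other cells in these surges was not tested.

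**Figure D5:**
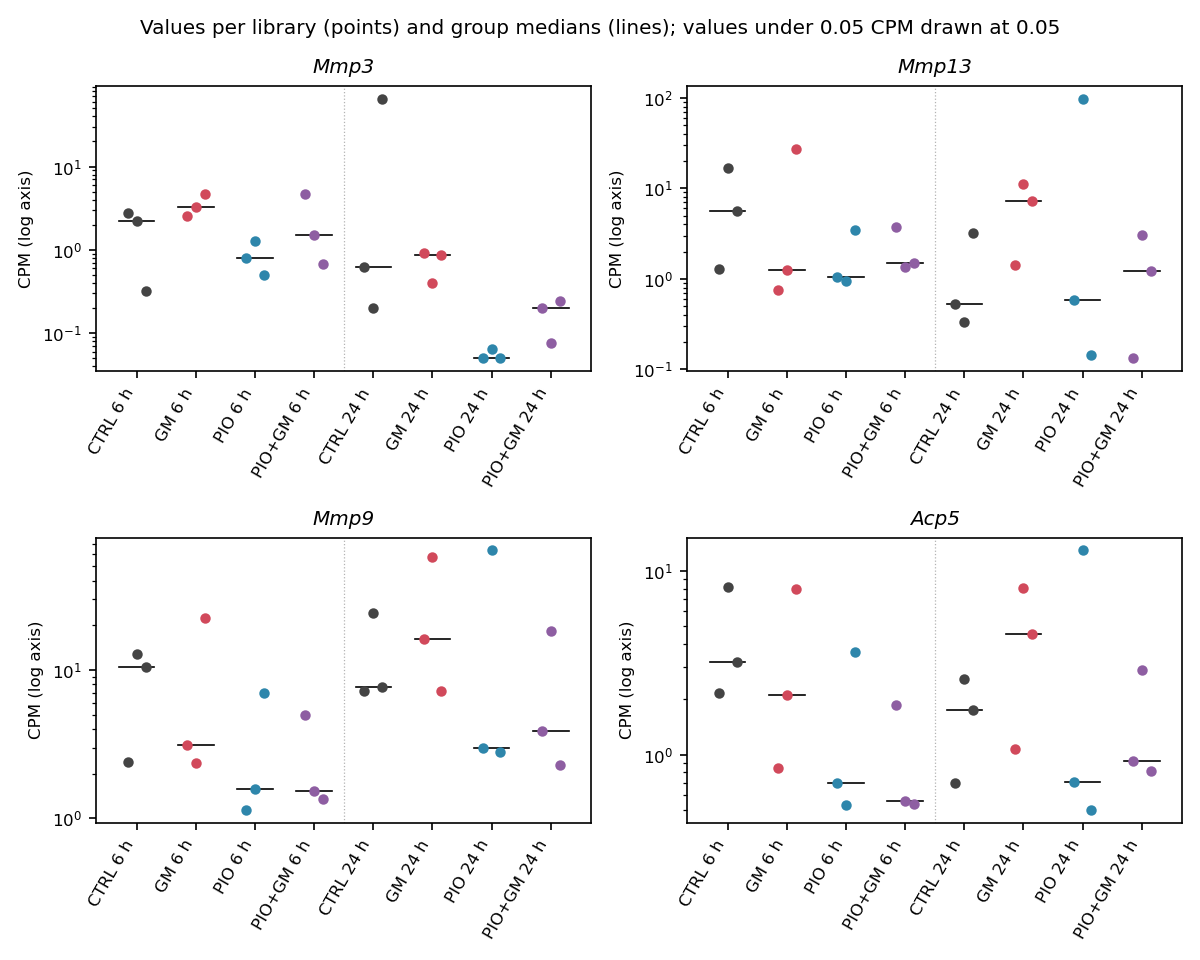
CPM of Mmp3, Mmp13, Mmp9 and the osteoclast gene Acp5 in each library (points, log axis), with group medians (lines) and values under 0.05 CPM drawn at 0.05. Single libraries stand far above the rest of their group, and PIO 24 h replicate 2 is highest for Mmp13, Mmp9 and Acp5.

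Adamts1, Mmp2 and Mmp25 passed the test in none of the 12 comparisons. Adamts1 had 147, 164 and 108 CPM in CTRL at 6 h and 152, 118 and 116 at 24 h, and lay between 74.6 and 172 CPM in all 24 libraries. Mmp2 had 430, 516 and 340 CPM in CTRL at 6 h and 576, 712 and 500 at 24 h, with log2 fold changes over time of 0.48 to 0.77 in the 4 treatments (edgeR adjusted p = 0.062 to 0.274). Mmp25, a membrane-type MMP of leukocytes, had the lowest unadjusted p of the genes higher in PIO than in CTRL at 6 h, with 1.84, 1.91 and 2.17 CPM in PIO and 1.21, 1.68 and 0.719 in CTRL (log2 0.72, edgeR adjusted p = 0.503).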

How the data were processed

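Stranded total RNA libraries were sequenced as single reads of 76 bases. Per the labels, STAR and mm10 were used, and the authors' counts are reads starting in any RefSeq exon of a gene as counted by QuasR, with no scaling. A further deposited column holds the gene length in base pairs. Use of the strand and of reads with several matches is not given in the sources used here, and the labels list 2 flow cells per library. Symbols were matched to 24374 of 24454 identifiers. Counts were analysed with R 4.3.3, edgeR 4.0.16 (TMM, filterByExpr, 1 mean per group over all 24 libraries, quasi-likelihood F-test), with DESeq2 1.42.0 as another test. Benjamini-Hochberg adjustment ran over 16317 genes. Standard errors come from the F statistic. CPM used TMM-scaled totals without a prior count, and RPKM used the deposited lengths. The fit was tested on simulated data.

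The 12 comparisons were each drug against its control at 6 and 24 h and 24 h against 6 h in each treatment, with 4 interactions. The genes and lists were chosen with earlier results of these data known. Genes named are those called in any comparison or interaction, the 4 TIMPs, the 10 of highest median RPKM, in each comparison the gene of lowest unadjusted p in each direction, and those below the filter. Mmp9, Adamts16, Adamts17 and Mmp19 were named outside this rule, after their values were seen. Libraries of the same number were checked for correlated deviations from the group means. Correlations were over 0.1 in every pair for GM and CTRL (0.428 to 0.723), PIO and CTRL (0.107 to 0.561) and PIO+GM and PIO (0.311 to 0.688) at 24 h. In the other comparisons not every pair passed that cut, and PIO+GM and GM at 24 h had 0.028, 0.627 and 0.387. Alternatives were library size scaling, DESeq2, other filters, a replicate block, a lowess offset for G and C content, the 12 libraries of a time point, and leaving out each library. The contrasts over both arms and the fit without 8 libraries were added after the data were seen.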

Additional observations from a re-analysis of the deposited data

How the results depend on the processing

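Counts of called genes are out of 38 (46 without a filter, 30 with at least 10 counts in every library, and 36 and 37 with the 12 libraries of 6 and 24 h), with the percentage of all genes called by the same fit in brackets where given. The drug comparisons stood at 0. In PIO against CTRL at 6 h they became 1 (0.701%) with at least 10 counts in every library, 3 (2.27%) with the replicate block, 2 (1.33%) with the G and C trend removed, 4 (5.66%) with both, 2 (2.35%) with DESeq2, 3 (2.90%) without the 8 libraries and 0 to 1 leaving out 1 library (0.0361% to 0.723%). In PIO against CTRL at 24 h they were 3 (1.48%) with the replicate block, 1 (0.534%) with the trend removed, 6 (3.79%) with both, 1 (0.993%) with DESeq2 and 0 to 2 leaving out 1 library. In PIO+GM against GM at 6 h they were 7 (12.2%) with the replicate block, 1 (4.45%) with block and trend, 3 (8.15%) with DESeq2, 11 (18.9%) without the 8 libraries and 0 to 9 leaving out 1 library (0.0241% to 24.4%). At 24 h PIO+GM against GM gave 1 with the replicate block (0.601%), with block and trend (1.25%) and with the 12 libraries of the time point (0.253%), as did PIO+GM against PIO with the 12 libraries (0.107%) and GM against CTRL with the 12 libraries (0.0379%) and with DESeq2 (0.0919%). The block changed no other call count by over 1.5 times among the 12 planned comparisons.

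For 24 h against 6 h, leaving out 1 library gave 7 to 11 in CTRL, 7 to 13 in GM, 7 to 14 in PIO and 8 to 12 in PIO+GM, and leaving out the 8 libraries gave 13 (19.4%), 17 (25.8%), 14 (34.2%) and 15 (36.8%). When the library left out was of 6 h, the share of all genes ran from 16.1% to 25.8% in CTRL and 13.0% to 22.5% in GM. It ran from 16.3% to 36.5% in PIO and 20.8% to 36.6% in PIO+GM. Over both arms, PIO against no PIO gave 7 (16.1%) at 6 h, with 11 (27.0%) under the replicate block, 0 (0.907%) with the 12 libraries, 11 (21.1%) with DESeq2, 19 (36.9%) without the 8 libraries and 5 to 14 leaving out 1 (6.88% to 30.6%). At 24 h it gave 3 (2.79%), with 1 (1.15%) without a filter, 9 (7.30%) with the replicate block, 6 (6.61%) with the trend removed, 11 (14.3%) with both, 6 (8.68%) with the 12 libraries, 6 (5.94%) with DESeq2, 4 (3.00%) without the 8 libraries and 0 to 4 leaving out 1. GM against no GM at 24 h gave 1 throughout. The sign turned for Mmp13 in PIO against CTRL at 24 h without PIO 24 h replicate 2 (-1.82, and up to 6.25 leaving out another library) and without the 8 libraries (-2.32), for Adamts20 in PIO+GM against PIO at 6 h without the 8 libraries (-0.11), and for Mmp3 in CTRL at 24 h against 6 h without CTRL 24 h replicate 3 (-2.14, and up to 4.22 leaving out another library). The cause was not tested. With 3 libraries per group and a biological coefficient of variation of 0.225, small changes of scarce genes could not be resolved.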
